A study of Mus musculus with 6 samples.

Results

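Complement is a set of plasma and cell-surface proteins that mark and attack microbes. Most are cleaved in sequence, so that each active fragment cuts the next protein, and the fragments released from C3 and C5 (anaphylatoxins) call in white blood cells through the receptors C3ar1 and C5ar1. The liver makes most of the plasma proteins, and lung epithelium and macrophages are known to make some of them locally. In the mouse, complement component C5 is encoded by Hc (hemolytic complement), and several inbred mouse strains are known to carry a loss-of-function allele of it.

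Of 9 complement genes, Hc, C3, C4b, C2, Cfb, Cfd, Cfi, C3ar1 and C5ar1, 6 could be measured here by 11 probe sets that carry that single gene symbol, out of 45037 probe sets in all. The question was whether a low value of Hc in lungs without epithelial Smad1 was shared by other complement genes. The genes were put together with that contrast in view, so the differences of these members are a description and carry no test. No probe set carried the symbol C3 or Cfd in the annotation used, and these genes were not analysed here. The symbol C4b appeared on 1 probe set, together with its near-identical neighbour C4a, so this probe set cannot be assigned to either gene and was not counted among the 11.

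The samples were left lung lobes of mouse embryos of strain C57/BL6 at E18.5, shortly before birth. In 3 embryos the labels give the genotype as wild type and in 3 as Smad1 CKO, a conditional knockout of Smad1 that the design text places in the lung epithelium. Smad1 acts in the nucleus to relay bone morphogenetic protein signals to target genes. Neither the Cre driver that deleted Smad1 nor the deleted part of the gene, nor the alleles of the wild type embryos, are given in the sources used here. Mice were taken as 3 pairs of 1 wild type and 1 CKO animal, with 1 Affymetrix Mouse430_2 array for each lobe. A whole lobe mixes cell types, so fewer cells of a type and less RNA per cell cannot be told apart in any value below. Values are log2(intensity + 1), differences are CKO minus wild type within a pair, and each mean difference is given with its SD over 3 pairs.

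Of the 6 arrays 2 stood apart. Smad1 CKO 3 had an 18S ribosomal RNA control signal of 2887, against 242.5 to 297.2 on the others. In its pair the median difference was -0.96 over the brightest 15012 probe sets and 0.28 over the dimmest 15013. These medians were -0.30 and 0.14 in pair 1, and -0.02 and 0.02 in pair 2. Median intensity still lay between 69.96 and 77.8 on all 6 arrays. Smad1 CKO 1 had an Xist level of 10.95, against 6.07 to 7.70 on the other arrays, so the 2 animals of pair 1 may also differ in sex. Values without pair 3 are given below where they change a reading. With 3 arrays per genotype, their number limits the precision, and nothing in the labels says more of the embryos' litters.

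Hc, which encodes the C5 precursor, was the member that stood low in the CKO lungs. Its gene lies on chromosome 2 at 34983329 to 35068506 (GRCm38.p6, RefSeq gene table). The 300 bases around a start annotated for it, from RefSeq at chr2:35061363-35061662 on the minus strand, are printed because Hc carries the difference described here, with motif matches in capitals and the window running from 250 bases before the start to 50 after it. This start lies inside the span given above and not at its upper end, where the outermost start of a gene on the minus strand would be.
Hc: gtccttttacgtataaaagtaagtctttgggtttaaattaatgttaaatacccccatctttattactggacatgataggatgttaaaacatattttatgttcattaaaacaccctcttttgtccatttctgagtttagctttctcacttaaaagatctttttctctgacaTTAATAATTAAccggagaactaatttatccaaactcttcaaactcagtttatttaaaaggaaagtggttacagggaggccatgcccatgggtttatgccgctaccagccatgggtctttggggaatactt
For comparison, the window of the C5a receptor gene C5ar1, from RefSeq at chr7:16259289-16259588 on the minus strand, is printed because its product binds the fragment cut from the Hc product.
C5ar1: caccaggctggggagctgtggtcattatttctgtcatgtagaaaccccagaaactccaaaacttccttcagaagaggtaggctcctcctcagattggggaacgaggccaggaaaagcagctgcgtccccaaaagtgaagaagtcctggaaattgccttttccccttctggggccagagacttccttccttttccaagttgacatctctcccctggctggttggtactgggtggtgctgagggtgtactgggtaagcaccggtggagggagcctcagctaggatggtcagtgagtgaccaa
The capitals mark the single match in the Hc window, TTAATAATTAA, which begins 80 bases before the start. It fits the palindrome TTAATNATTAA, the core of sites bound by HNF1 factors, which are known for liver, kidney and gut genes. Of 32544 distinct promoter windows of this length, 40 held that palindrome on either strand (0.123%). The Smad element GTCTG, held by 49.5% of windows, and the GC-rich Smad element GGCGCC, held by 11.9%, had 0 matches in both windows. The C/EBP core TTGCNNAA (10.8% of windows), the Nkx2-1 core CAAGTG (13.5%) and the FOXA core TGTTTNC (20.5%) had 0 matches in both as well. All 6 motifs were searched on both strands, with any overlap allowed, and were chosen after the Hc window had been seen. A match is a string of letters and not a bound site. Among the measured members the window table also held C3ar1, whose window had 1 match, to the Smad element.

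Hc was read by 1 probe set. Its level was 12.38, 12.00 and 11.99 in wild type lungs 1 to 3, and 8.90, 8.12 and 9.16 in CKO lungs 1 to 3. All 3 CKO lungs lay below all 3 wild type lungs, and the closest pair of arrays across genotypes was wild type 3 and CKO 3. As intensity, wild type lungs had 5311, 4104 and 4071 and CKO lungs 476.1, 277.5 and 572.2. The differences were -3.48, -3.88 and -2.83 in pairs 1 to 3. Their mean was -3.40 ± 0.53 (SD, 3 pairs), with a standard error of 0.254 in the fit, which is a 10.5-fold lower intensity. Across all probe sets this was the mean difference at rank 5 from the lowest. The size differed between pairs, from 7.10-fold in pair 3 to 14.7-fold in pair 2. Within its array the probe set lay at percentile 98.6 to 99.0 in wild type lungs and at 75.3 to 94.6 in CKO lungs, so Hc remained above the array median in every CKO lung. In pair 3, where bright probe sets in general read low, the difference of Hc minus the median difference of the brightest 15012 was -1.87, and in pairs 1 and 2 it was -3.18 and -3.86.

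**Figure D1:**
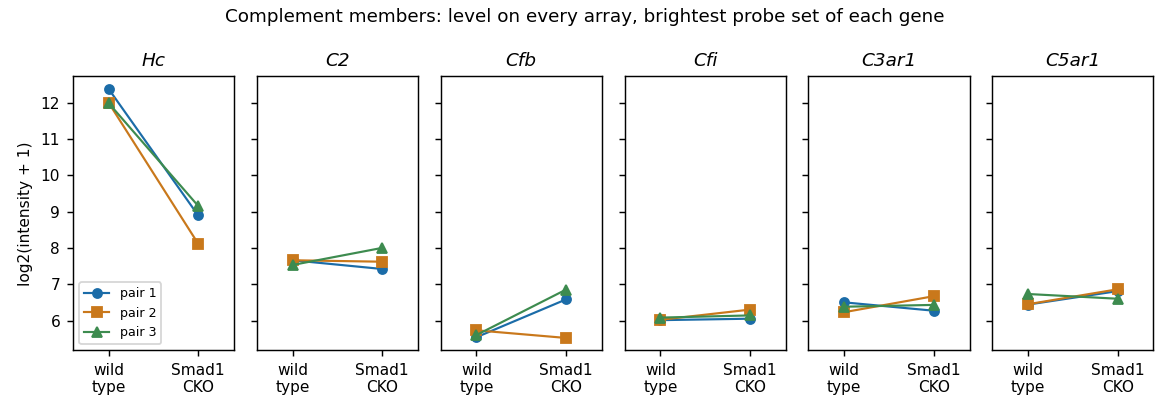
Level of each measured complement member, log2(intensity + 1) on the vertical axis, by the probe set with the highest mean of each gene. Each line joins the wild type and the Smad1 CKO lung of 1 pair. Hc averages 12.12 in wild type and 8.73 in CKO lungs, while the lines of the other 5 genes stay between 5.52 and 8.0 and cross or run nearly flat, apart from Cfb in pairs 1 and 3. Levels of different genes come from different probe sets and cannot be compared.

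The other 5 measured members did not lie low together. Their 10 probe sets had mean differences between -0.42 and 0.69, with a median of 0.07, against -0.09 over all 18193 genes by their representative probe set. In each of the 3 pairs Hc was lower than all 10. Over all 11 probe sets 3 were lower in all 3 pairs, against 24.1% of all probe sets, and 2 were higher in all 3 pairs, against 22.7%. The groups did not overlap for 2 of the 11 with CKO lower, against 5.36% of all probe sets, and for 0 with CKO higher, against 4.7%. Since the members were chosen on this contrast, nothing further is read from these counts. All 10 probe sets other than Hc lay between percentiles 27.9 and 84.1 of their arrays. By their mean 9 of these 10 fell in the middle 15012 of all probe sets and 1, of C2, among the brightest 15012. No detection calls were used here.

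C2 encodes the serine protease that combines with a C4 fragment to form the C3-cleaving enzyme of the classical and lectin pathways. It was read by 3 probe sets that did not move in the same direction. The probe set with the highest mean had levels of 7.66, 7.66 and 7.53 in wild type lungs and 7.42, 7.62 and 8.0 in CKO lungs. Here CKO 3 was the highest array and CKO 1 the lowest, and the difference was 0.06 ± 0.37. A second probe set, at 7.15, 6.70 and 6.62 in wild type and 7.37, 7.36 and 6.81 in CKO lungs, differed by 0.35 ± 0.26 and was higher in all 3 pairs, although the groups overlapped. The remaining C2 probe set was lower in all 3 pairs, by -0.59, -0.09 and -0.54, with overlapping groups. Under leaving out pair 3 the difference of the brightest probe set was -0.14, so its sign is not settled.

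Cfb encodes factor B, the protease of the alternative pathway that takes the part C2 has in the classical pathway. Its level was 5.54, 5.73 and 5.60 in wild type lungs and 6.58, 5.52 and 6.85 in CKO lungs. CKO 1 and CKO 3 were above all wild type lungs, while CKO 2 was below them. The differences were 1.04, -0.21 and 1.25, with a mean of 0.69 ± 0.79 and a 95% interval in the fit of -0.10 to 1.49. This was the highest mean among the members, with a spread over pairs larger than the mean itself. The arrays that read high for Cfb are those described above, with an Xist level of 10.95 in CKO 1 and an 18S signal of 2887 in CKO 3, and the part of either in this difference was not tested. Without pair 3 the mean was 0.42.

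Cfi encodes factor I, a protease that inactivates C3 and C4 fragments and so limits the cascade. Its level was 6.01, 6.02 and 6.08 in wild type and 6.05, 6.30 and 6.14 in CKO lungs. The 6 arrays lay within a narrow range and the groups overlapped. The mean difference was 0.13 ± 0.14, with an interval of -0.33 to 0.59, and each pair was slightly positive.

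C2 and Cfb are direct neighbours on chromosome 17, with Cfb at 34856374 to 34862514 and C2 at 34862602 to 34882100 in GRCm38.p6, and C4b lies at 34728139 to 34743902 on the same chromosome. The probe set shared by C4a and C4b had levels of 7.06, 6.87 and 7.23 in wild type and 7.60, 6.88 and 7.39 in CKO lungs. Its groups overlapped and its difference was 0.24 ± 0.27. The 9 other protein-coding genes from 2 before C4b to 2 after C2 had mean differences between -0.63 and 0.29, so no common shift of this gene block was seen. Around Hc, 5 of the 6 nearest protein-coding genes were measured. Traf1, an adaptor of tumour necrosis factor receptors, differed by 0.24, Phf19 by 0.64, Cutal by 0.04 and Cntrl, a centriole protein gene, by 0.09. Rab14, a vesicle transport gene, was at -0.67, with -1.89 in pair 3 and -0.20 and 0.08 in pairs 1 and 2. Of these 5, Traf1, Phf19 and Cutal were higher in all 3 pairs, against 21.0% of all genes, and 0 were lower in all 3, against 29.3%.

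C3ar1 is the receptor for the anaphylatoxin of C3, known from macrophages, neutrophils and mast cells. Its probe set with the highest mean stood at 6.50, 6.23 and 6.38 in wild type lungs and 6.27, 6.67 and 6.43 in CKO lungs, a difference of 0.09 ± 0.33 with overlapping groups. Its other probe sets differed by -0.42 ± 0.62 and -0.34 ± 0.25. The last of these, at 5.86, 5.83 and 5.79 in wild type and 5.37, 5.35 and 5.73 in CKO lungs, was low in CKO 1 and CKO 2 and close to wild type in CKO 3, without overlap between the groups. The mean of all 3 probe sets was -0.23, so the sign for the gene depends on the probe set.

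C5ar1 is the receptor for the anaphylatoxin cut from the Hc product. Its brighter probe set read 6.44, 6.45 and 6.73 in wild type lungs and 6.81, 6.86 and 6.60 in CKO lungs, so that CKO 1 and CKO 2 were the highest arrays and CKO 3 lay within the wild type range. The difference was 0.21 ± 0.30, with an interval of -0.30 to 0.72. The dimmer probe set went the other way, at -0.36 ± 0.39. Neither receptor had a difference near the size of that of Hc.

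**Figure D2:**
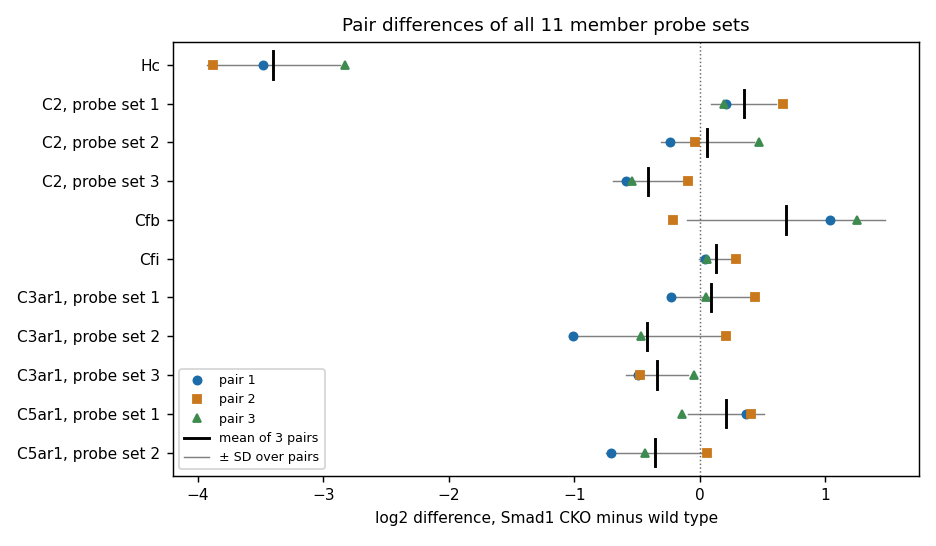
Difference of each of the 11 member probe sets, log2 CKO minus wild type on the horizontal axis, with a marker for each pair, a black bar for the mean of 3 pairs and a grey line for ± SD. Probe sets of a gene are numbered in the order of their identifiers. Hc lies between -3.88 and -2.83 in the 3 pairs, and all other points lie between -1.01 and 1.25.

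To set the members beside the rest of the system, 49 other complement genes were listed by role, and 40 of them were measured. None passed the adjusted threshold of 0.05 in limma's fit across all 45037 probe sets, where 1 probe set passed (0.00222%) and 0 of 18193 genes by their representative probe set (0.0%). At an unadjusted p under 0.05, 6 of the 40 were lower, against 9.96% of all genes, and 3 were higher, against 4.96%. The remaining 31 did not pass. The median difference of the 40 was 0.07, with pair medians of 0.00, 0.01 and -0.03, against -0.09, 0.00 and -0.16 over all genes. Lower in all 3 pairs were 11 of the 40, against 29.3% of all genes, and higher in all 3 pairs were 10, against 21.0%. The shares with the same direction in all 3 pairs lay near those of all genes, and the list held genes of both directions. Without pair 1, only C6, Cd55 and Cd93 of the 40 kept an unadjusted p under 0.05. Over all 45037 probe sets, 593 were then lower and 62 higher at this threshold, against 3781 and 1931 with all 3 pairs.

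In the terminal pathway, whose proteins assemble on cleaved C5 into a pore, C6 was lower. C6 encodes the protein that binds the C5 fragment first. Its level was 8.94, 8.92 and 8.78 in wild type lungs and 7.98, 7.61 and 7.75 in CKO lungs, without overlap. The difference was -1.10 ± 0.18, a 2.14-fold lower intensity, with an unadjusted p of 0.00132 and an adjusted p of 0.367 in limma's fit. It was the smallest p among the 40 genes. The difference was close in size in the 3 pairs, at -0.95, -1.30 and -1.04, and its unadjusted p stayed under 0.05 in all 11 alternatives. After quantile and cyclic loess normalization the difference was smaller, at -0.73 and -0.71. The other 4 measured genes of this pathway, C8a, C8b, C8g and C9, had mean differences of 0.29, 0.41, 0.63 and 0.37 and none passed at an unadjusted p under 0.05. C6 was also among the 5 genes whose levels over the 6 arrays followed those of Hc most closely, out of 11840 brighter genes, with Pearson's r of 0.984. Aqp5, the water channel gene of alveolar type 1 cells (r = 0.985, difference -3.05), the epithelial integrin subunit gene Itgb6 (r = 0.975, -1.27), Prr18 (r = 0.986, -0.81) and Depdc1b (r = 0.996, -0.31) were the others. These 6 arrays fall into the same genotypes for all genes, so such r values mostly follow the difference between genotypes. The other members had r values with Hc of -0.09 for C2, -0.50 for Cfb, -0.74 for Cfi, -0.38 for C3ar1 and -0.73 for C5ar1 over the same arrays.

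Among the genes that start the classical pathway, C1qa, a chain of the recognition protein C1q, was at -0.98 ± 0.52 (unadjusted p = 0.00858, adjusted p = 0.367, limma). C1qb was at -0.77 ± 0.75, with -0.75, -0.02 and -1.53 in pairs 1 to 3, and its unadjusted p was 0.0503. C1qc was at -0.47 ± 0.42. In pair 2 all 3 chains were near the wild type level or moderately lower, from -0.38 to 0.01. C1q is made mainly by macrophages. Of the 16 markers of macrophages and monocytes 2 were lower and 4 higher in all 3 pairs, against 29.3% and 21.0% of all genes. Their median was -0.04, or 0.02 without pair 3. Their summed log2 intensity was 14.08 to 14.51 in wild type and 12.62 to 13.90 in CKO lungs. That sum is led by Lyz1, a lysozyme gene, which stood at -1.71, while Csf1r, the macrophage growth factor receptor gene, stood at -0.16. The part of macrophage number in the C1q values was not tested. The proteases C1ra and C1s1 differed by -0.23 and -0.24.

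In the lectin pathway, which starts at sugars on a surface, 9 genes were measured. At an unadjusted p under 0.05, 2 of them were lower and 2 higher, against 9.96% and 4.96% of all genes. The collectin Colec10 was at -0.94 ± 0.42 and the scavenger receptor collectin Colec12 at -1.11 ± 0.94, or -0.63 without pair 3. Colec11 was at 0.86 ± 0.65 by its brighter probe set and at -0.43 by its other, so its direction is not settled. Mbl2, a mannose-binding lectin made in the liver, was at 0.65 ± 0.48, from a wild type level of 4.24 that lay at percentile 8.98 of wild type array 1. The associated proteases Masp1 and Masp2 differed by 0.31 and 0.44 and did not pass.

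Of the regulators that protect host cells, Cd55, which speeds decay of the C3-cleaving enzymes, was at -1.56 ± 1.07 (2.95-fold lower, unadjusted p = 0.00898, adjusted p = 0.367, limma). Its level was 7.95, 8.24 and 7.66 in wild type and 6.69, 7.58 and 4.91 in CKO lungs, so the CKO lungs were all lower and CKO 3 was lowest by far. Its 3 probe sets were all lower in all 3 pairs, with mean differences of -1.56, -1.24 and -0.75, and without pair 3 the representative was at -0.97. Cd46, a cofactor for factor I, was at 0.85 ± 0.71, with 1.14, 0.04 and 1.37 in pairs 1 to 3. Pairs 1 and 3 hold the 2 CKO arrays that stood apart, and their part in the Cd46 difference was not tested. The mouse regulator Cr1l differed by -0.43 and Cd59a, which blocks the terminal pore, by -0.40, and neither passed. The soluble regulators had 0 of 7 with an unadjusted p under 0.05, against 9.96% of all genes lower and 4.96% higher. Among them Serping1, the C1 inhibitor gene, was at -0.59 ± 0.94, with -1.67 in pair 3 and -0.15 and 0.06 in the others.

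Among other receptors Cd93, a surface glycoprotein of endothelial and myeloid cells named in older work as a C1q receptor, was at -1.17 ± 0.86 (unadjusted p = 0.0149, adjusted p = 0.367, limma). Its 5 probe sets disagreed, from -1.17 to 0.85, with both bright probe sets at -1.17 and -1.13. Without pair 3 its representative was at -0.68. All 12 endothelial markers were lower in all 3 pairs as well, against 29.3% of all genes. Their median was -0.98, or -0.64 without pair 3. Their summed log2 intensity was 13.67 to 14.21 in wild type and 11.92 to 13.60 in CKO lungs. Endothelial pair medians were -0.77, -0.62 and -1.63, against -0.30, -0.02 and -0.96 over the brightest 15012 probe sets. The part of this shift of bright probe sets in the endothelial values was not tested. Whether Cd93 differs beyond the endothelial markers was not tested. The integrin genes Itgam, Itgax and Itgb2, whose products form complement receptors on white blood cells, differed by 0.30, 0.38 and 0.09 and did not pass.

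**Figure D3:**
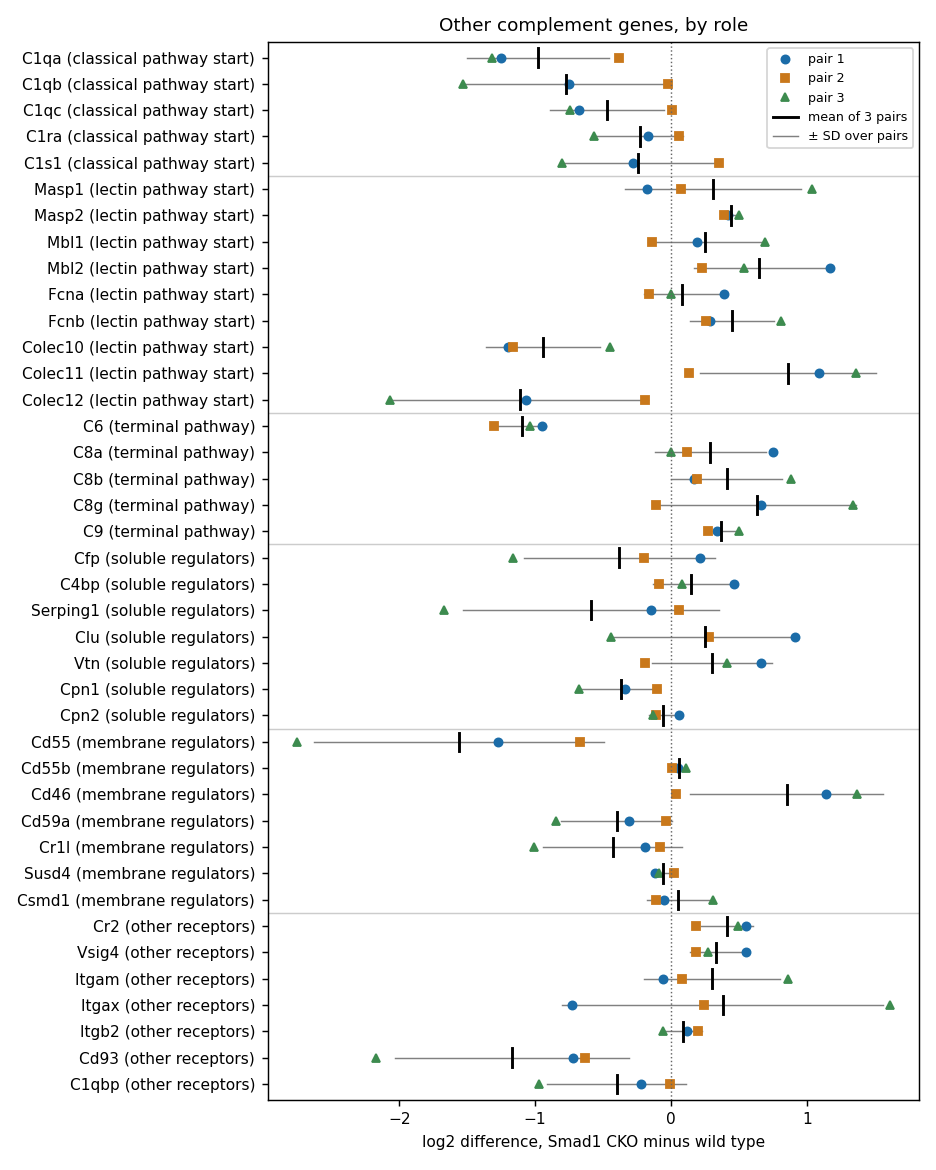
Difference of the 40 other complement genes, log2 CKO minus wild type, by their probe set with the highest mean and ordered by role, with a marker for each pair, a black bar for the mean and a grey line for ± SD. C6 has its 3 pairs close together, between -1.30 and -0.95. Cd55 and Cd93 are led by pair 3, at -2.75 and -2.17, and most other genes straddle 0.

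Markers of the cells that could make complement were set beside these values. Alveolar type 2 markers lay low in the same lungs as Hc, with a median of -1.45, or -0.97 without pair 3. Of the 15 measured, 13 were lower in all 3 pairs, against 29.3% of all genes. Among these 13, Napsa (-0.03 and -0.02) and Ctsh (-0.04 and -0.01) were near 0 in pairs 1 and 2. Sftpd (0.01 and 0.09) and Muc1 (0.11 and 0.37) were higher in pairs 1 and 2. Their summed log2 intensity was 16.83 to 17.06 in wild type and 14.34 to 16.29 in CKO lungs. Sftpa1 (surfactant protein A) was at -5.17 ± 1.04 and the desaturase gene Scd1 at -3.86 ± 0.67, both lower than Hc at -3.40. Hc was chosen for its low value in this contrast, so its place against the list median carries no test. Alveolar type 1 markers had a median of -0.78, or -0.33 without pair 3. Lower in all 3 pairs were 12 of 13, against 29.3% of all genes. Type 1 pair medians were -0.37, -0.33 and -1.48, against -0.30, -0.02 and -0.96 over the brightest 15012 probe sets. The part of this shift of bright probe sets in the alveolar values was not tested. General epithelial markers had pair medians of 0.03, 0.22 and -1.02, and club cell markers -0.08, 0.01 and -1.71. The part of alveolar cell number or maturity in the Hc difference was not tested.

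Hepatocyte markers, of the cells that make most plasma C5, did not lie low with Hc. Their median difference was 0.38 over 11 genes, with pair medians of 0.61, -0.01 and 0.38. In all 3 pairs 5 were higher and 1 lower, against 21.0% and 29.3% of all genes. At an unadjusted p under 0.05, 4 were higher and 0 lower, against 4.96% and 9.96% of all genes. Their summed log2 intensity was 9.12 to 9.34 in wild type and 9.16 to 10.03 in CKO lungs. Signal was low for many of them, and 4 of the 11 lay below the array median on every array. The dimmest 15013 probe sets had median differences of 0.14, 0.02 and 0.28 in pairs 1 to 3. The part of this shift in the hepatocyte values was not tested. Alb, the albumin gene, had levels of 6.25, 6.20 and 6.44 in wild type and 6.85, 6.56 and 7.01 in CKO lungs.

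The white blood cells that carry C3ar1 and C5ar1 were read through their own markers. Neutrophil markers had a median of 0.14 over 11 genes, or 0.01 without pair 3. In all 3 pairs 1 was lower and 2 were higher, against 29.3% and 21.0% of all genes. At an unadjusted p under 0.05, 1 was lower and 1 higher, against 9.96% and 4.96% of all genes. These were S100a9, a neutrophil calcium-binding protein gene, at -0.86 and Mpo at 0.58, from a wild type mean of 4.95. Mast cell markers had a median of 0.55 over 8 genes. The mast cell chymase gene Cma1 was at 1.07, whereas Kit, the stem cell factor receptor gene, was at -1.39. Lists of programmes and factors known to raise complement genes were read as well. Acute-phase and inflammatory genes had a median of 0.28 over 18 genes, with Serpina3n at 0.92 and Lcn2 at -1.46. In all 3 pairs 9 were higher and 2 lower, against 21.0% and 29.3% of all genes. Interferon-responsive genes had a median of -0.30 over 16. In all 3 pairs 6 were lower and 0 higher, against 29.3% and 21.0% of all genes. At an unadjusted p under 0.05, 6 of the 16 were lower and 0 higher, against 9.96% and 4.96% of all genes. Oasl2 was at -1.11 and Ifit2 at -0.93. Of 10 transcription factors known for complement genes, Cebpa was at -0.95 ± 0.45 and Cebpd at -0.71 ± 0.55. In all 3 pairs 2 of the 10 were lower and 1 higher, against 29.3% and 21.0% of all genes. The higher one was Hnf4a, at 0.94 ± 1.03, with 0.66, 0.08 and 2.08 in pairs 1 to 3. The list median was -0.23, or -0.11 without pair 3. Fibroblast and matrix markers had a median of -0.76, which was -0.10 without pair 3. Mesothelial markers had a median of -0.46, or -0.36 without pair 3. The medians of adipocyte and lipofibroblast markers, at -0.07, and of erythroid markers, at -0.21, changed sign without pair 3, to 0.10 and 0.05. None of the genes in any of these lists passed the adjusted threshold by its representative probe set in limma's fit.

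**Figure D4:**
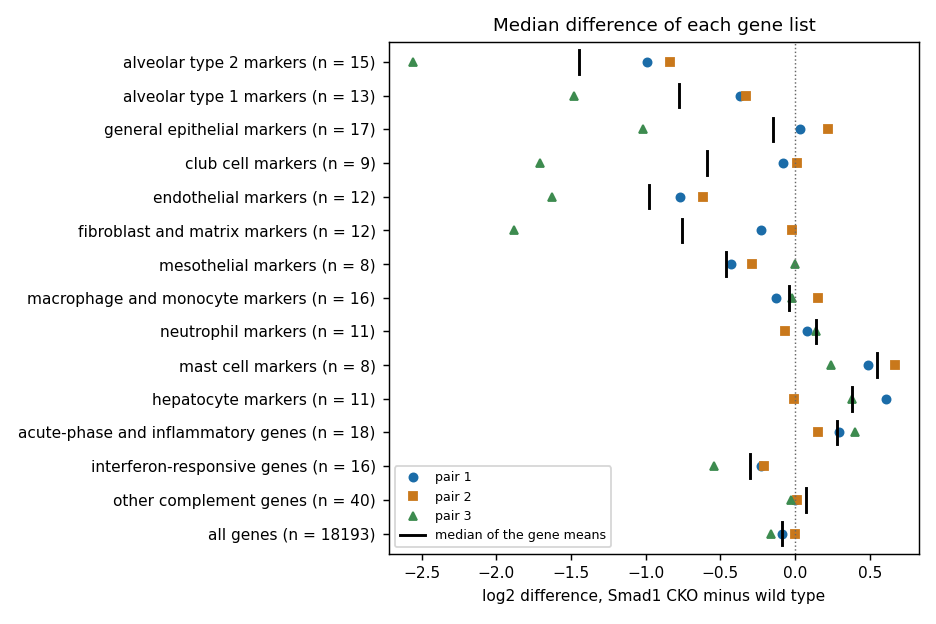
Median difference of each list of marker or programme genes, log2 CKO minus wild type, with a marker for the median in each pair and a black bar for the median of the gene means. The number of measured genes is given beside each name. Alveolar type 2 markers lie lowest, at -0.99, -0.84 and -2.56 in pairs 1 to 3, while hepatocyte markers and the other complement genes lie near or above 0.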

How the data were processed

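RNA of the left lung lobe of 6 embryos was hybridised to 1 array each. The authors deposited intensity values per probe set on a linear scale, and the submitters' processing notes name RMA, with software and settings not given in the sources used here. Intensities were turned into log2(value + 1), and 64 control probe sets were left out. Of 45037 others, 34945 had 1 symbol, 932 several and 9160 none in the platform annotation. Of those with 1 symbol, 34741 were matched to the RefSeq gene table. Of a gene's probe sets the brightest on average over 6 arrays stood for it, which gave 18193 genes.

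Genotype was fitted with limma 3.58.1 in R 4.3.3 (lmFit, eBayes, two-sided) with the pair as a block, adjusted by Benjamini-Hochberg over 45037 probe sets. Pairs come from the design text, and array names within a pair begin with the same letter. Deviations from group means correlated within pairs at 0.258, 0.604 and 0.597, and at most at 0.215 across pairs. Nothing says how the embryos relate, so p-values measure only the spread between these samples. The fit was tested on simulated data.

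Members and lists were chosen with earlier results of these data known. Named were all members, the 10 other complement genes with the smallest p, up to 4 genes per list, genes nearest to Hc and C4b to C2 (protein-coding only, a limit set after seeing the gene table) and 5 genes most correlated with Hc, with further values given to complete a role. Genes most like C3 were not sought, since C3 was not analysed here.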

Additional observations from a re-analysis of the deposited data

How the results depend on the processing

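Hc was lower in CKO lungs under all 11 alternatives, from -3.68 to -2.82, with -2.82 after quantile and -2.84 after cyclic loess normalization. It was -3.40 with no replicate block and -3.68 to -3.15 with a pair left out. Cfb stayed above 0 in all 11, from 0.42 to 1.15, and Cfi from 0.03 to 0.17. C2 changed sign without pair 3 (-0.14) and without Smad1 CKO 3 (-0.10). C3ar1 changed sign without pair 2 (-0.09) and as the mean of its probe sets (-0.23), and C5ar1 did so as that mean (-0.08). The median of the 40 other complement genes ran from -0.02 to 0.11 with a pair left out, and was 0.01 without Smad1 CKO 3 in the unpaired fit, 0.11 after cyclic loess and -0.14 with the lowest 25% of probe sets left out. Of these genes 3 to 8 were lower and 0 to 4 higher at an unadjusted p under 0.05 with a pair left out. Over all 45037 probe sets these counts were 593 to 7019 and 62 to 3615. Without Smad1 CKO 3 the 40 genes had 3 lower and 1 higher, against 1068 and 480 of all probe sets. With no replicate block 1 of the 40 was higher, against 388, and with an intensity trend 7 were, against 4110. All 10 other complement genes with the smallest p kept their direction in every alternative that gave a value. They were picked by p on these same arrays, so a kept direction was likely from the start and adds no separate support. Colec11 by its other probe set was at -0.43.

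Over all probe sets 1 passed the adjusted threshold. With the pair left out as a term (no replicate block), after quantile normalization and with a pseudocount of 16 it was 0, after cyclic loess 2, without the lowest 25% 14, and with an intensity trend 32. With a pair left out it was 0 to 28. At an unadjusted p under 0.05, 3781 were lower and 1931 higher. With no replicate block these were 1255 and 388, with a pair left out 593 to 7019 and 62 to 3615, and without Smad1 CKO 3 1068 and 480. After quantile normalization 2391 were lower, and 3029 were higher after cyclic loess, 1191 with a pseudocount of 16 and 4110 with an intensity trend. The cause of these moves was not tested.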
